A study of Homo sapiens with 4 samples.

Results

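The comparison described here is EBC-CR3 against its parental line EBC-1, as 1 library against 1 library. EBC-1 is an established line of human lung cancer cells in which MET is amplified, a gene whose product is the receptor tyrosine kinase bound by hepatocyte growth factor. EBC-CR3 was derived from EBC-1 by stepwise selection in capmatinib, which blocks the kinase activity of MET, with 2.4 µmol/L as the highest concentration, and was kept in 1 µmol/L for over 2 months. The parental culture was at passages 35 to 37 and the EBC-CR3 culture at passages 81 to 83, and both grew in the same serum-containing medium. Resistance, drug exposure and time in culture cannot be told apart in these 2 libraries, and the sources used here do not say whether the drug was present at harvest. Members of the comparison are genes at a log2 level of 3.32 or more, which is the log2 of 10, in either library, and 14287 of the 26364 listed symbols met this. The lowest member stood at 3.39 in its higher library (140 genes) and the highest gene left out at 3.29 (159 genes).

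The header of the value column does not match the label: EBC-R1 heads the column deposited for EBC-CR3, and EBC-R3 heads the one deposited for EBC-CR1. Names here follow the sample labels, so each value given for EBC-CR3 is that of the library labelled EBC-CR3. If the headers are right, the values given for EBC-CR1 are those of EBC-CR3. EBC-CR1 and EBC-CR2, selected up to 1.5 and 2.2 µmol/L and also kept in 1 µmol/L, at passages 64 to 66 and 81 to 83, are the other resistant lines of the study. Their levels are given beside those of EBC-CR3 where a result turns on them, and all 3 differences use the same parental library. Nothing in the labels says that a line was sampled from more than 1 culture, so the spread between cultures is unknown and no difference has a replicate check or a p-value.

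MET signals through the RAS and ERK cascade and through phosphoinositide 3-kinase, and a line that depends on amplified MET ordinarily loses both outputs when the kinase is blocked. Cells that outlive such a block are known to do so through other receptors, through changes downstream of MET, or through shifts in cell state that carry inflammatory, YAP-driven or lineage genes with them. Levels below are log2(units + 1), differences are EBC-CR3 minus EBC-1 on that scale, and a gene is called higher or lower when it differed at least 2-fold, a log2 difference of 1. Intervals in brackets are 95% counting intervals of the difference, on the log2 scale, from estimated reads, and they cover counting error only.

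The markers of squamous epithelium, the tissue type given for this line, were mostly lacking. Of 9 markers, 5 were listed at 0 in EBC-1 and 5 in EBC-CR3, among them the basal keratin genes KRT5, KRT6A and KRT14. The general epithelial markers were high in both libraries, with CDH1, the E-cadherin gene, at 13.47 in the parental library and 14.47 in EBC-CR3 and EPCAM at 11.22 and 10.65. The 2 squamous markers that were members are transcription factors: TP63 was listed at 0 in EBC-1 and stood at 8.43 in EBC-CR3, and SOX2 was at 6.45 and 10.85 (difference 4.41, 4.13 to 4.72). TP63 was at 6.65 in EBC-CR1 and at 11.32 in EBC-CR2, so that every resistant library was above the parental one. NKX2-1, the lineage factor of alveolar and thyroid cells, was at 1.91 in EBC-1 against 6.08 in EBC-CR3, with 3.88 and 3.61 in EBC-CR1 and EBC-CR2. NAPSA, the other alveolar marker that was a member, was at 3.61 and 3.29. In a longer squamous list of 22 genes 4 of 9 members were higher and 3 lower, with a median difference of -0.43. In a longer adenocarcinoma and alveolar list of 18 genes 4 of 9 members were higher and 1 lower, with a median of 0.86.

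Most markers of other cell types were listed at 0. All 5 erythroid markers were listed at 0 in EBC-1 and EBC-CR3, while HBB stood at 13.90 and HBA2 at 11.61 in the library labelled EBC-CR1, whose column carries the number of EBC-CR3. Of 9 leukocyte markers, 7 were listed at 0 in EBC-1 and 6 in EBC-CR3, PTPRC among them, and their summed level was 10.25 units in EBC-1 and 592.5 in EBC-CR3. Almost all of that was ITGB2, the beta 2 integrin gene, at 3.39 in the parental library and 9.18 in EBC-CR3. Of 4 endothelial markers, 4 were listed at 0 in EBC-1 and 3 in EBC-CR3. Of 5 fibroblast markers 3 were listed at 0 in each library, but COL1A1, a collagen I gene, was higher at 5.37 and 7.25, and their summed level was 43 and 153 units. Of 4 neuroendocrine markers 3 and 2 were listed at 0, and NCAM1 stood at 0 and 3.61, with a summed level of 3.25 and 12 units. The part of these cell types in the results was not tested. RNA was taken from whole cultures, in which fewer cells of a kind and less RNA per cell cannot be told apart.

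Of the 14287 members, 2229 were higher (15.6%) and 2350 lower (16.4%) in EBC-CR3, and 9708 lay within 2-fold. The shares of 15.6% and 16.4% are the ones to set beside the counts of each gene list below. The median difference over all members was -0.09, against -0.08 in EBC-CR1 and -0.10 in EBC-CR2 over the same genes. Large differences were more often gains than losses: 946 genes were at least 4-fold higher and 711 at least 4-fold lower, 306 and 147 reached 16-fold, and 24 and 5 reached 256-fold. The higher genes together held 5.28% of all units in EBC-1 and 16.9% in EBC-CR3, and the lower genes 12.6% and 4.66%. Low levels carried a large part of the calls, since 75.9% of genes with a mean level up to 4 differed at least 2-fold, against 17.9% of those between 10 and 12. The counting interval lay wholly past 2-fold for 1592 higher genes (11.1%) and 1386 lower genes (9.7%).

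**Figure D1:**
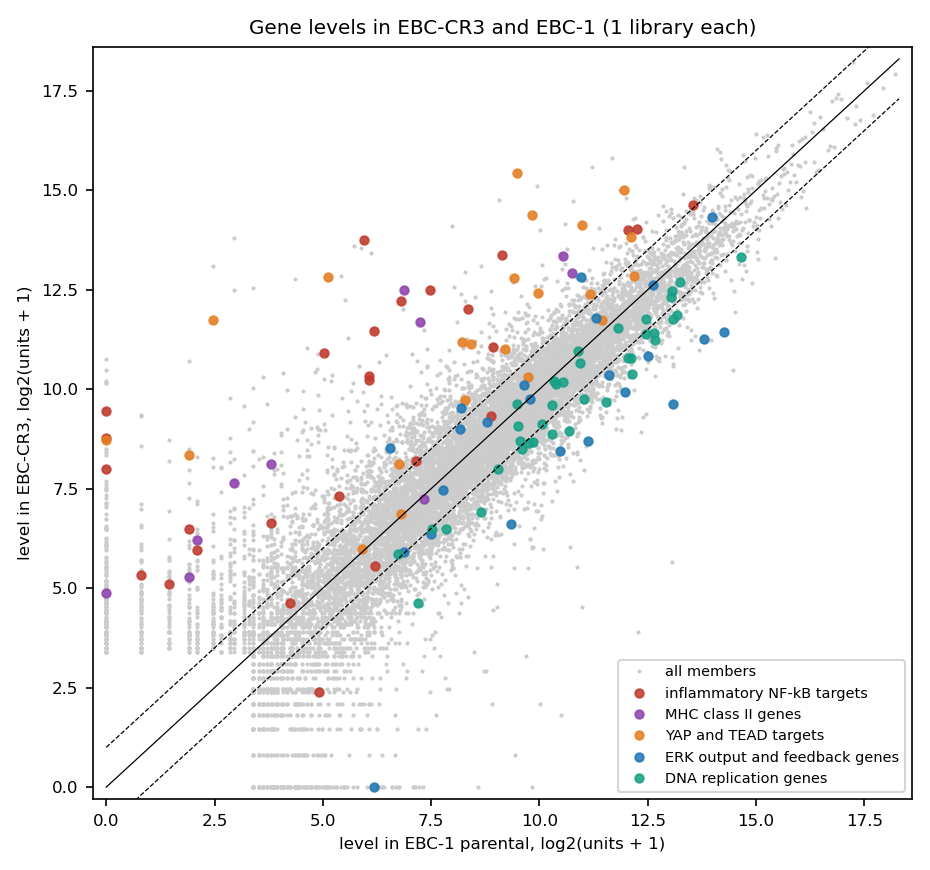
Level of each of the 14287 members in EBC-1 (x axis) and EBC-CR3 (y axis), both as log2(units + 1), 1 library each. The solid line marks equal levels and the dashed lines a 2-fold difference. NF-kB, MHC class II and YAP and TEAD target genes lie mostly above the upper dashed line, while DNA replication genes and many ERK output genes lie along or under the lower one.

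The 15 largest gains among genes above 3 estimated reads in both libraries were led by VNN2, SAA1, LCN2 and RBMS3. VNN2, a gene of the vanin family of pantetheinases, was at 2.95 in EBC-1 against 13.79 in EBC-CR3, a difference of 10.84 (10.06 to 12.25). SAA1, an acute-phase apolipoprotein gene, was at 2.46 and 13.10, and LCN2, which encodes a siderophore-binding lipocalin, at 2.95 and 12.48. The other resistant libraries were also far above EBC-1, with VNN2 at 13.60 and 13.66 and SAA1 at 12.58 and 14.61 in EBC-CR1 and EBC-CR2. RBMS3, an RNA-binding protein gene, was spread more widely, at 2.46 in the parental library and 11.75 in EBC-CR3, while EBC-CR1 had 10.93 and EBC-CR2 3.86.

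CCND2, the cyclin D2 gene, which drives entry into the cell cycle, was at 5.73 in the parental library and 13.60 in EBC-CR3, 235-fold higher. BCAT1, the cytosolic branched-chain aminotransferase gene, was at 5.87 and 13.56, and INHBA, the activin beta A subunit gene, at 6.12 and 13.43. The rest of the 15 largest gains were PDZK1IP1 (9.14), C3 (8.79), FAM65C (8.42), LTB (7.79), ANKRD1 (7.70), CFB (7.45), C1S (6.92) and TMEM45A (6.72). In EBC-CR2, INHBA stood at 9.03, LTB at 10.39 and ANKRD1 at 7.67, under the EBC-CR3 levels of 13.43, 13.74 and 12.81.

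The largest losses included surface, channel and adhesion genes. MYEOV, a gene first found through its overexpression in myeloma, was at 12.28 in EBC-1 against 3.91 in EBC-CR3 (difference -8.37, -9.24 to -7.73). CALB2, the calretinin gene, was at 13.05 and 5.66, and SDC2, a heparan sulphate proteoglycan gene, at 8.91 and 2.09. KCNN4, a calcium-activated potassium channel gene, was at 10.99 in the parental library and 4.54 in EBC-CR3, while EBC-CR2 stayed near the parental level at 10.75 and EBC-CR1 stood at 5.84. RCAN3, a calcineurin regulator gene, was ordered alike, at 8.76, 2.91, 7.97 and 3.61 in EBC-1, EBC-CR3, EBC-CR2 and EBC-CR1. LAMA3, a subunit of laminin 332 in the epithelial basement membrane, was at 10.71 and 6.04. The other losses of this rank were PLXNA4 (-7.93), EPHB6 (-6.41), CRIP1 (-5.81), MYH16 (-5.46), LIPG (-5.41), G0S2 (-5.33), ENPP1 (-5.10), EMP3 (-5.07) and NBEA (-5.07).

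**Figure D2:**
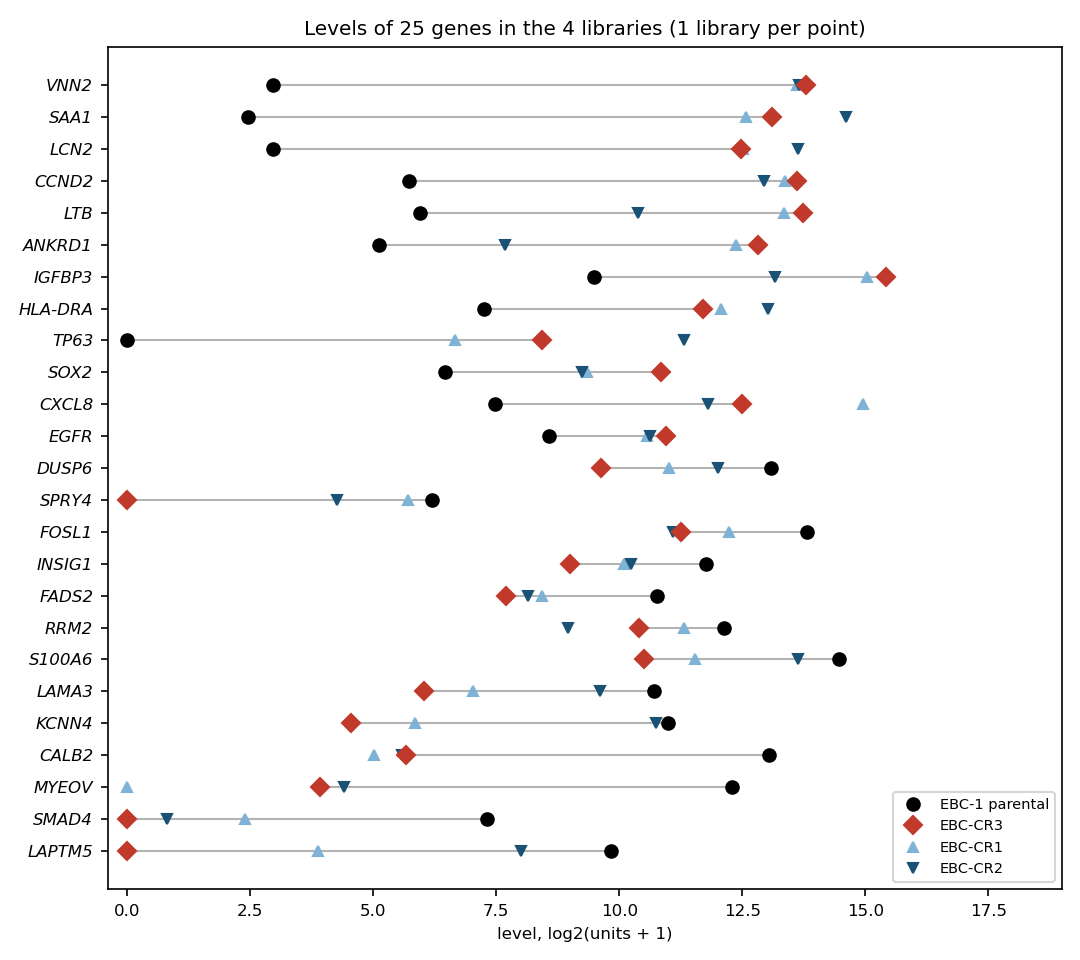
Level of 25 genes named in the text (y axis) in the 4 libraries, as log2(units + 1) on the x axis, with 1 library per point and a grey line from EBC-1 to EBC-CR3. VNN2 runs from 2.95 to 13.79 and MYEOV from 12.28 to 3.91; DUSP6 and LAMA3 are lower in EBC-CR3 than in any other library.

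Among the members, 225 were listed at 0 in EBC-1 and 169 in EBC-CR3; a listing at 0 does not show absence, and no fold is given for it. The 12 with the highest EBC-CR3 levels among those at 0 in EBC-1 were BDNF, a neurotrophin gene (10.75), DMD, the dystrophin gene (10.48), NR3C2, the mineralocorticoid receptor gene (10.20), SNCAIP (10.15), SAA2 (10.15), VNN1 (9.48), CCL2 (9.46), TNIP3 (8.77), AMOTL1 (8.73), LRG1 (8.70), MAOA (8.50) and LOC100506178 (8.49). How reads divide between SAA1 and SAA2 is uncertain, since the genes are nearly the same in sequence. In the other direction EBC-CR3 listed LAPTM5, which encodes a protein of lysosomal membranes, at 0, where the parental library had 9.83, EBC-CR1 3.88 and EBC-CR2 7.99. SMAD4, the shared signal carrier of the TGF-beta and BMP pathways, stood at 7.31 in the parental library and at 0 in EBC-CR3, with 2.39 and 0.81 for EBC-CR1 and EBC-CR2. GJB5, a skin connexin gene, stood at 7.22 in the parental library, at 7.74 in EBC-CR2 and at 0 in both EBC-CR3 and EBC-CR1. The rest at 0 in EBC-CR3 were XAF1 (8.58 in EBC-1), TRHDE-AS1 (7.12), FSIP2 (7.12), RNF43 (7.08), ANKRD29 (6.75), CORO2B (6.75), FABP5 (6.68), NOX5 (6.60) and HR (6.60). The sources used here do not say how the counting treated strand, so reads of TRHDE-AS1 and TRHDE cannot be told apart.

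The 12 largest gains in units, rather than in ratio, are ranked by deposited units, which are not corrected here for gene length. ACTB, the beta actin gene, was at 14.99 in EBC-1 against 16.42 in EBC-CR3, higher than the 15.70 and 15.50 of EBC-CR1 and EBC-CR2. SAT1, a polyamine acetyltransferase gene, was at 11.68 and 15.80, 17.4-fold higher, and AKAP12, a scaffold of protein kinase A, at 11.22 and 15.59, with 14.09 and 12.05 in EBC-CR1 and EBC-CR2. MT2A, a metal-binding metallothionein gene (difference 1.18), PRSS23, a secreted protease gene (1.78), PEG10 (1.95) and TPT1 (1.13) were higher too. LRRC75A-AS1 (0.97), RPS24 (0.51), B2M (0.71), APLP2 (0.46) and RPS27A (0.49) gained many units but stayed within 2-fold. Of the 12 largest losses in units, 3 were tubulin genes: TUBA1C was at 17.69 and 16.89, TUBB at 17.29 and 16.66, and TUBA1B, lower by the rule, at 16.14 and 14.55. Reads may also be split wrongly among the similar tubulin genes. RAN, a nuclear transport GTPase gene (-1.21), and UBE2C, a ubiquitin-conjugating enzyme gene of mitosis (-1.10), were lower as well, whereas HMGA1 (-0.65), CAV1 (-0.37), HSP90AB1 (-0.28), CD63 (-0.72), TAGLN2 (-0.91), EIF4G1 (-0.93) and TPD52L2 (-0.63) lay within 2-fold.

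NF-kB is a transcription factor family that is held in the cytoplasm by inhibitors and, once released by signals such as TNF or interleukin 1, switches on chemokine genes and its own inhibitors. Of 33 inflammatory NF-kB targets listed, 27 were members, and 23 of these were higher and 1 lower, where 15.6% and 16.4% of all members were. The median difference was 3.86 over the 27 members and 3.26 over the 22 above 3 estimated reads in both libraries, against -0.09 over all members. Of the 27 members 7 stood under 3.32 in EBC-1 and passed the floor only through EBC-CR3, so they had to differ. Over the 27 members the median was 4.39 in EBC-CR1 and 4.33 in EBC-CR2. The 1 lower member was CSF2, a granulocyte and macrophage growth factor gene, at 4.92 in the parental library and 2.39 in EBC-CR3, but at 8.26 in EBC-CR1.

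Among the ligands, LTB, a membrane-bound lymphotoxin gene, was at 5.95 in EBC-1 against 13.74 in EBC-CR3 (222-fold higher). CSF1, the macrophage growth factor gene, was at 5.02 and 10.91, and IL6 at 3.81 and 6.64. CXCL8, the interleukin 8 gene, which attracts neutrophils, was at 7.47 in the parental library and 12.49 in EBC-CR3, with 14.95 in EBC-CR1 and 11.80 in EBC-CR2. CXCL2 was at 6.06, 10.33, 12.80 and 10.22 in the same order of libraries, and CXCL5 at 0.81, 5.33, 8.57 and 3.86. In these chemokine genes EBC-CR3 stood above EBC-1 but below EBC-CR1. Of all 12 chemokine members 11 were higher, 6 of them under 3.32 in EBC-1, and CX3CL1 was lower at 7.31 and 5.54. CCL7, which attracts monocytes, stood at 0.81 in EBC-1 and at 6.53 in EBC-CR3, with 3.61 in EBC-CR1 and a listing at 0 in EBC-CR2. RASSF6, CXCL8, CXCL1, PPBP, CXCL5, CXCL3 and CXCL2 follow each other among the members on chromosome 4, and all 7 were higher.

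Some inhibitors of the pathway were higher as well. TNFAIP3, which encodes the deubiquitinase A20, was at 6.79 in the parental library and 12.21 in EBC-CR3, and NFKBIA, the main cytoplasmic inhibitor gene, at 12.25 and 14.02. BIRC3, an inhibitor of apoptosis gene, was at 8.35 and 12.03. Of 27 NF-kB subunits, inhibitors and A20 partners, 14 were higher, 1 lower and 12 within 2-fold, with a median of 1.05, and NFKBIZ, an inhibitor family gene, lay within 2-fold at 8.88 and 9.33. RELB, a subunit of the alternative pathway, was at 8.92 and 11.06, and the lower gene was CHUK, the kinase gene IKK alpha, at 8.99 and 7.34. Upstream, the interleukin 1 receptor gene IL1R1 stood at 4.36 in the parental library and at 0 in EBC-CR3, and its accessory chain IL1RAP was at 7.69 and 9.77. CASP1, the protease gene that matures interleukin 1 beta, was at 3.61 and 10.30.

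The promoters of these genes are shown to let the shared NF-kB motif be seen beside the values. Each is the 250 bases before the start site in RefSeq (GRCh38.p14), 5′ to 3′ on the strand of the gene, with matches to the NF-kB consensus on either strand in capitals. CXCL1 lies at chr4:73869143-73869392 (plus strand), CXCL2 at chr4:74099196-74099445 (minus), CXCL3 at chr4:74038690-74038939 (minus), LTB at chr6:31582426-31582675 (minus) and LCN2 at chr9:128149203-128149452 (plus).
CXCL1: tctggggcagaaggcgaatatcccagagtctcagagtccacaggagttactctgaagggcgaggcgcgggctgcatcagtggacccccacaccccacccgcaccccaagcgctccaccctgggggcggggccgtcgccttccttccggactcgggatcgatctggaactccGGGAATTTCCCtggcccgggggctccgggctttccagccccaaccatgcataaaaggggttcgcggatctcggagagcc
CXCL2: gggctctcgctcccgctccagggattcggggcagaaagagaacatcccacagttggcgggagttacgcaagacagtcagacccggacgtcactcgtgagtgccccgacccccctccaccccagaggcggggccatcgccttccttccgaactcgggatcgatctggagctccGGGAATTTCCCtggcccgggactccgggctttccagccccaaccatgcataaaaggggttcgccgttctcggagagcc
CXCL3: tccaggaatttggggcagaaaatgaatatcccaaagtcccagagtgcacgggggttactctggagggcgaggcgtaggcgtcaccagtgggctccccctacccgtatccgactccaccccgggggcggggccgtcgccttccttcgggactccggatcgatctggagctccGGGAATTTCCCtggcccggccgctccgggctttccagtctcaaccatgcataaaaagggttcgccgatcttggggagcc
LTB: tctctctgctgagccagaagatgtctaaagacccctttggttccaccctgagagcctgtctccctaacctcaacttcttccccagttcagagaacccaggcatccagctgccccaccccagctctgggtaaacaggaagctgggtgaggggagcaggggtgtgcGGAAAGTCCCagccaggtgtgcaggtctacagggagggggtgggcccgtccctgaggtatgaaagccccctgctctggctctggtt
LCN2: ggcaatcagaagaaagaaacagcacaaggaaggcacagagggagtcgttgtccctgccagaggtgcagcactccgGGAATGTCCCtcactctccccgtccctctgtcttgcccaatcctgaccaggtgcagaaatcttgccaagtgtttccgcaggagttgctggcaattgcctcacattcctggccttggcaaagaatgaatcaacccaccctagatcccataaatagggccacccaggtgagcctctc
In CXCL1, CXCL2 and CXCL3 the matches on the strands overlap, the first beginning 79, 78 and 79 bases before the start site, and lie in the longest run of bases that the 3 promoters share, 23 bases long. In LTB the match begins 86 bases and in LCN2 175 bases before the start, and the LCN2 match overlaps the TEAD core sequence GGAATG. CXCL1 was at 6.08 in EBC-1 against 10.23 in EBC-CR3, and CXCL3 at 6.17 and 11.47.

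In windows of 300 bases, 250 before to 50 after the start, the NF-kB consensus was in 12 of the 24 promoters found for the NF-kB list and in 5.73% of all 27195 promoters of the table. The list is made of known NF-kB targets, so that share is no independent evidence. Of the 12 genes with a match 11 were higher, and of the 12 without a match 9 were. Of the 14287 members, 10391 had a promoter in the table. Among these the consensus was in 7.31% of 1545 higher genes (6.07 to 8.73%, exact binomial 95% interval), 6.19% of 1600 lower genes (5.06 to 7.48%) and 6.47% of 7246 genes within 2-fold. The TATA box TATAAA was in 10.1% of higher genes (8.64 to 11.7%), 7.0% of lower genes (5.8 to 8.36%) and 4.64% of genes within 2-fold (4.16 to 5.15%). Over all promoters of the table it was in 12%, and over the 10391 members with a promoter in 5.81%. The E-box CACGTG was in 9.32%, 11.2% and 10.2% in the same order, and the AP-1 sequence (TGAGTCA or TGACTCA) in 3.75%, 3.62% and 2.87%. A match is a description of letters in the window.

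Acute-phase and complement genes are ordinarily made by liver and by inflamed epithelium. Of 18 acute-phase genes listed, 8 were no members and 10 were. Of the 10 members 8 were higher and 0 lower, but 7 of them stood under 3.32 in EBC-1 and passed the floor only through EBC-CR3, so these 7 had to differ. The median was 8.08 (8.12 over the 6 above 3 estimated reads in both), against 7.44 in EBC-CR1 and 8.24 in EBC-CR2. SERPINA3, the antichymotrypsin gene, stood at 0 in the parental library and at 6.56 in EBC-CR3, and SAA4 at 0 and 6.86. The 2 within 2-fold were SERPINA1, the antitrypsin gene, at 11.26 and 12.14, and CP, the ceruloplasmin gene, at 8.29 and 8.91. Of 16 complement members 7 were higher, 4 of them under 3.32 in EBC-1, 0 lower and 9 within 2-fold, with a median of 0.73. Over the 14 above 3 estimated reads in both 5 were higher, with a median of 0.44. C1R and C1S, protease genes of the classical pathway, were at 4.88 and 9.86 and at 2.86 and 9.78. The classical pathway genes C4A (3.39 and 2.46) and C4B (3.39 and 2.91) lay within 2-fold, and C1QA was listed at 0 in both libraries. C3 (1.91 and 10.70) and CFB (5.41 and 12.86) were higher and belong to the acute-phase list as well.

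MHC class II molecules present peptides to helper T cells, and their genes are controlled together by CIITA. Of 10 class II members 9 were higher, 4 of them under 3.32 in EBC-1, with a median of 4.22, and CIITA itself lay within 2-fold at 7.34 in the parental library and 7.23 in EBC-CR3. HLA-DRA was at 7.25 and 11.70, HLA-DRB1 at 6.87 and 12.50, HLA-DMB, a peptide-loading chain, at 3.81 and 8.13, and CD74, which encodes the invariant chain, at 10.76 and 12.92. In EBC-CR2, CIITA stood at 9.64 and HLA-DRA at 13.02. Reads may be split wrongly among the similar HLA genes. CTSS, the protease gene that trims the invariant chain, was at 0.81 in EBC-1 against 5.95 in EBC-CR3. Of 17 class I and peptide-loading genes, 6 were higher and 0 lower, with a median of 0.71; HLA-E was at 9.61 and 11.21 and TAPBP, the tapasin gene, at 12.15 and 13.36.

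Interferon-stimulated genes leaned the other way. Of 32 members 5 were higher and 12 lower, where 15.6% and 16.4% of all members were. The median was -0.47, against -0.82 in EBC-CR1 and 0.25 in EBC-CR2. OAS3, an antiviral sensor gene, was at 9.51 in the parental library and 7.44 in EBC-CR3, OAS1 at 7.54 and 5.51, ISG15 at 8.34 and 6.64, and MX1 at 6.76 and 3.61. GBP2, a guanylate-binding protein gene, went against these at 5.85 and 10.57. The other higher members were GBP1 (7.26 and 9.59), IFITM1 (3.17 and 5.81), IFITM2 (0 and 5.62) and IFITM3 (9.94 and 11.39). IFITM1 and IFITM2 stood under 3.32 in EBC-1 and passed the floor only through EBC-CR3. In EBC-CR2, OAS1 was at 7.57 and ISG15 at 8.47, near the parental levels of 7.54 and 8.34. CD274, the PD-L1 gene, was at 8.52 in EBC-1 against 7.86 in EBC-CR3, within 2-fold.

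**Figure D3:**
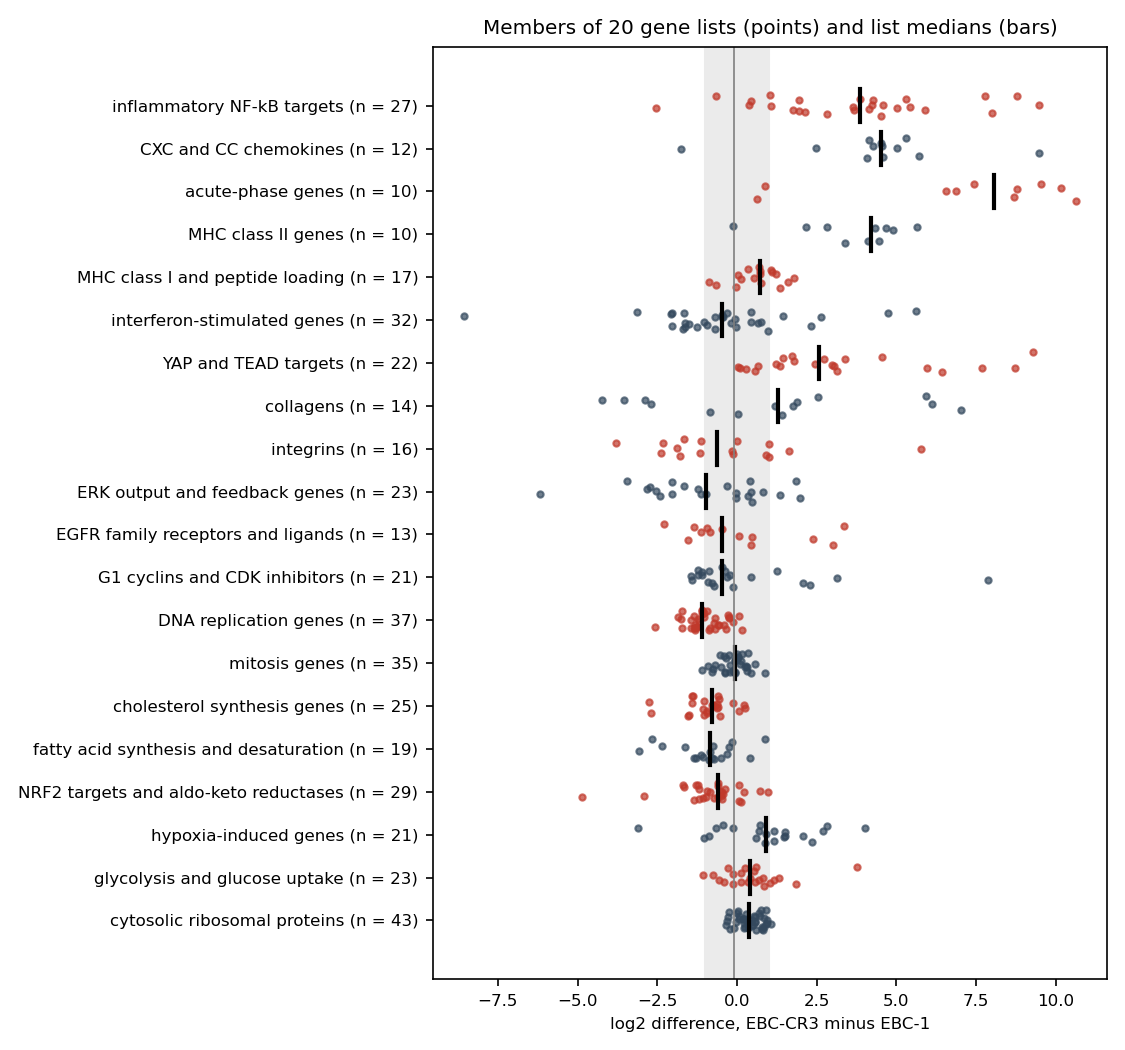
Log2 difference, EBC-CR3 minus EBC-1 (x axis), of each member of 20 gene lists (y axis, n members), with a black bar at the list's median, a grey band for differences within 2-fold and a grey line at the median of all members, -0.09. Among these 20 lists the medians run from 8.08 for acute-phase genes to -1.09 for DNA replication genes, and the 35 mitosis genes sit in the band but for 1.

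YAP is a transcriptional coactivator that enters the nucleus when cells spread or lose Hippo signalling and acts through TEAD factors. Of 22 members of the YAP and TEAD target list 17 were higher and 0 lower, where 15.6% and 16.4% of all members were. The median was 2.59, against 2.84 in EBC-CR1 and 1.21 in EBC-CR2. Of the 22 members 3 stood under 3.32 in EBC-1 and passed the floor only through EBC-CR3, so they had to stand above EBC-1. Over the 21 above 3 estimated reads in both libraries 16 were higher, with a median of 2.45. ANKRD1 was at 5.12 in the parental library and 12.81 in EBC-CR3, IGFBP3 at 9.48 and 15.43 (61.7-fold higher), CTGF at 9.41 and 12.79, and CYR61 at 11.95 and 15.01. EBC-CR2 stood at 11.89 for CYR61, near the parental 11.95, while EBC-CR1 stood at 15.17. TGFB2, a TGF-beta ligand gene, was at 9.83 and 14.38. AXL, a receptor kinase gene often counted among these targets, was at 12.11 and 13.82, 3.28-fold higher.
The ANKRD1 promoter is printed as the gene of this list with the largest gain among those whose promoter holds the TEAD core GGAATG, here in capitals; it lies at chr10:90921088-90921337 (minus strand, GRCh38.p14), and the matches begin 220 and 128 bases before the start site.
ANKRD1: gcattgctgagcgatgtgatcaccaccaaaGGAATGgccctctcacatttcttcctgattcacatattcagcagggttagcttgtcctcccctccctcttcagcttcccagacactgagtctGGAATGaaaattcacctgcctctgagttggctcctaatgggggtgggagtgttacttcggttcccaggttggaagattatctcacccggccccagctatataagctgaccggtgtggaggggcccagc
The core was in 5 of the 15 promoters found for this list (33.3%, exact binomial interval 11.8 to 61.6%). It was in 14% of all promoters of the table, which lies inside that interval. Among the 10391 members with a promoter it was in 10.9%, which lies just below the interval. The list is made of known YAP and TEAD targets, so its share is no independent evidence. Among higher, lower and within-2-fold genes the core was in 11.7%, 11.1% and 10.7%.

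ERK, the kinase at the end of the RAS cascade, raises transcription factors such as FOSL1 and the ETV genes and also its own brakes, the SPRY and DUSP genes. Of the 23 ERK output and feedback genes, all of them members, 3 were higher and 11 lower, with a median of -0.96, and -0.63 over the 22 above 3 estimated reads in both, that is without SPRY4. The median over all 23 was -0.05 in EBC-CR1 and -0.30 in EBC-CR2. DUSP6, an ERK phosphatase gene, ranked in the order EBC-1 (13.09), EBC-CR2 (12.01), EBC-CR1 (11) and EBC-CR3 (9.64), the last 11-fold lower than the first (difference -3.45, -3.56 to -3.36). EBC-CR3 listed SPRY4, a feedback inhibitor gene, at 0, against 6.19, 5.70 and 4.27 in EBC-1, EBC-CR1 and EBC-CR2, and SPRY1 was at 9.35, 7.44, 8.97 and 6.61. For these 3 brakes EBC-CR3 was the lowest of the 4 libraries. FOSL1 was at 13.81 in EBC-1 against 11.25 in EBC-CR3, PHLDA1 at 14.26 and 11.44, ETV4 at 11.11 and 8.71, and ETV5 at 10.46 and 8.44. EPHA2, an ephrin receptor gene, had a parental level of 11.98, close to the 11.86 of EBC-CR1, and stood at 9.94 in EBC-CR3. The 3 higher genes were DUSP1 (6.56 and 8.53), JUNB (10.97 and 12.83) and MYC (8.19 and 9.53).

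In the EGFR family 2 receptor genes and 1 ligand gene were higher and 4 ligand genes lower. EGFR was at 8.57 in the parental library and 10.95 in EBC-CR3 (5.19-fold higher), ERBB4 at 1.91 and 5.25, and the ligand gene EPGN at 2.86 and 5.88. The ligand genes TGFA (11.81 and 10.70), AREG (10.63 and 9.27), EREG (9.45 and 7.90) and BTC (5.77 and 3.49) were lower, so that 3 of 13 members were higher and 4 lower. Of the 3 higher members, ERBB4 and EPGN stood under 3.32 in EBC-1 and passed the floor only through EBC-CR3. In EBC-CR1, EREG stood at 9.52, near the parental level. MET itself was within 2-fold, with a difference of -0.10. Of 18 members of the list of receptor tyrosine kinases outside the EGFR family, MET among them, 8 were higher and 2 lower. Of the 8 higher members 3 stood under 3.32 in EBC-1, and over the 15 above 3 estimated reads in both 5 were higher and 2 lower. The insulin receptor gene INSR was at 7.70 and 10.42, IGF1R at 7.09 and 9.54, and FGFR1 at 9.66 and 11.43. KIT, the stem cell factor receptor gene, stood at 0 in the parental library and at 4.82 in EBC-CR3, and MERTK was lower at 7.37 and 5.25.

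Most downstream genes lay within 2-fold, as did most of all members, of which 15.6% were higher and 16.4% lower. Of 21 RAS, RAF, MEK and ERK genes 5 were higher and 1 lower, with a median of 0.07. BRAF was at 4.51 and 5.99 and HRAS, the lower member, at 10.41 and 8.85. Of 25 genes of the phosphoinositide 3-kinase, AKT and mTOR pathway 5 were higher and 3 lower. SGK1, a corticosteroid-induced kinase gene related to AKT, was at 4.63 and 11.04, and IRS2, an insulin receptor substrate gene, at 10.94 in EBC-CR3, where the other libraries had 9.40 (EBC-1), 9.91 (EBC-CR1) and 9.99 (EBC-CR2). PIK3R3, a regulatory subunit gene, was at 11.07 and 8.58, and AKT1 at 11.22 and 9.69, with 10.91 in EBC-CR1.

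Genes of DNA replication and of mitosis, both of which follow the rate of division in most cultures, differed from each other. Of 37 replication genes 0 were higher and 21 lower, with a median of -1.09, whereas of 35 mitosis genes 0 were higher and 1 was lower, with a median of -0.06. In EBC-CR1 the medians were -0.62 and 0.16 and in EBC-CR2 -2.22 and -1.63. RRM2, a ribonucleotide reductase subunit gene, was at 12.13 in EBC-1 against 10.39 in EBC-CR3, TYMS, the thymidylate synthase gene, at 11.53 and 9.68, CDC6, a licensing factor gene, at 10.69 and 8.96, and PRIM1, a primase gene, at 7.19 and 4.63. MCM7, a helicase subunit gene, was at 14.66 and 13.33. Of the mitosis genes UBE2C alone was lower, and CCNB1, the cyclin B1 gene (10.39 and 9.69), and ASPM, a spindle pole gene (9.06 and 9.62), lay within 2-fold.

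Of 21 G1 cyclins and inhibitors of cyclin-dependent kinases, 5 were higher and 6 lower, where 15.6% and 16.4% of all members were. CCND1, the cyclin D1 gene, was at 11.60 and 10.37 and was lower, while CCND2 was higher. The inhibitor genes CDKN2A (7.42 and 10.56), CDKN2B (6.76 and 9.07), CDKN1C (8.91 and 11) and CDKN1B (10.05 and 11.30) were the other 4 higher members. E2F1, the factor that drives replication genes, was at 10.13 and 8.69, and CDK4 at 11.06 and 9.82. Of 16 BCL2 family members, which are cell death genes, 4 were higher and 2 lower, with a median of 0.14. Of all members 15.6% were higher and 16.4% lower, with a median of -0.09. The activators BMF (7.42 and 10.13), BBC3 (9.71 and 12.15) and BCL2L11 (10.38 and 12.01) were higher, as was the protector BCL2 (4.98 and 5.99). The protectors BCL2L2 (6.93 and 5.33) and BCL2L1 (11.77 and 10.42) were lower, and the other 10 of 16 members lay within 2-fold.

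No lipid synthesis gene of the lists was higher. Of 25 cholesterol synthesis genes 0 were higher and 10 lower, with a median of -0.79, and of 19 genes of fatty acid synthesis and desaturation 0 were higher and 8 lower, with a median of -0.84. The medians were -0.51 and -0.25 in EBC-CR1 and -0.23 and -0.19 in EBC-CR2. INSIG1, a sterol sensor gene, was at 11.76 in the parental library and 8.998 in EBC-CR3, against 10.09 and 10.23 in EBC-CR1 and EBC-CR2. LSS, the lanosterol synthase gene, was at 9.04 and 6.35, with 7.96 and 8.29 in the other lines. FASN, the fatty acid synthase gene, was at 11.74 and 10.11, SCD, a desaturase gene, at 13.75 and 12.42, and FADS2 at 10.77 and 7.69.

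Genes that respond to low oxygen were more often higher than lower, and no gene of the NRF2 antioxidant list was higher. Of 21 hypoxia-induced members 10 were higher and 2 lower, with a median of 0.91, against -0.13 in EBC-CR1 and 0.77 in EBC-CR2. ADM, the adrenomedullin gene, was highest in EBC-CR3 (11.66), followed by EBC-CR2 (11.15), EBC-CR1 (9.17) and EBC-1 (8.83). LOX, a collagen cross-linking enzyme gene, was at 5.92 and 9.93, EGLN3, an oxygen-sensing hydroxylase gene, at 7.23 and 8.73, and P4HA1, a collagen hydroxylase gene, at 13.03 and 14.53. Of 23 glycolysis and glucose uptake genes 5 were higher and 1 lower, with SLC2A3, a glucose transporter gene, at 6.92 in EBC-CR3, where the other libraries had 3.17 (EBC-1), 4.54 (EBC-CR1) and 3.46 (EBC-CR2), and HK1, a hexokinase gene, at 11.15 and 13.01. Of 29 NRF2 targets and aldo-keto reductases 0 were higher and 10 lower, with a median of -0.60. Of the 29 members 4 stood under 3.32 in EBC-CR3 and passed the floor only through EBC-1. Over the 28 above 3 estimated reads in both 9 were lower. NQO1, a quinone reductase gene, was at 14.79 and 13.59, and SLC7A11, the cystine transporter gene, at 11.19 and 9.84.

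Matrix and adhesion genes differed member by member. Of 14 collagen members 8 were higher and 4 lower. COL8A1 was at 7.98 and 14.10 and COL12A1 at 3.70 and 9.62, while COL6A1 was at 9.78 and 6.25 and COL18A1 at 10.07 and 7.38. Of 16 integrin members 3 were higher and 8 lower, with a median of -0.63, and -0.15 over the 15 above 3 estimated reads in both: ITGA6 and ITGB4, which pair as the laminin receptor of hemidesmosomes, were at 12.68 and 10.34 and at 11.62 and 9.75, and ITGA2, a collagen receptor chain, at 14.41 and 12.76. COL17A1, another hemidesmosome gene, was at 9.01 and 4.54. Hemidesmosome genes were also below EBC-1 in EBC-CR1, with ITGB4 at 9.37 and COL17A1 at 2.95, but ITGB4 stood at 12.75 in EBC-CR2. LAMA4 (7.71 and 10.75) and LAMB1 (10.33 and 11.94), laminin chains found around vessels and muscle, were higher.

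Of 9 plasminogen system members 1 was higher and 5 lower, with a median of -2.34, and -0.64 over the 7 above 3 estimated reads in both. SERPINE2, a protease inhibitor gene, was at 11.88 and 8.97, and SERPINF2, the antiplasmin gene, at 6.06 and 0.81. The urokinase gene PLAU and its receptor gene PLAUR were within 2-fold, at 14.06 and 13.97 and at 14.30 and 13.89. Of 10 S100 members 1 was higher and 7 lower, with S100A6 at 14.47 and 10.49 and S100A10 at 11.80 and 9.47. S100A9, a subunit of calprotectin, was the higher one at 4.09 and 7.25. Of 10 clade B serpin members 4 were higher and 3 lower, with a median of 0.17. Over the 5 above 3 estimated reads in both 1 was higher and 1 lower. SERPINB3, SERPINB4 and SERPINB13, squamous serpin genes, were listed at 0 in EBC-1 and stood at 6.50, 8.06 and 6.74. These 3 passed the floor only through EBC-CR3, so they had to stand above EBC-1. SERPINB5, the maspin gene, was at 9.82 in EBC-1 and at 6.01 in EBC-CR3, with 9.66 in EBC-CR2. SERPINB3 and SERPINB4 are near-identical copies and may share reads.

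In the epithelial list 7 of 27 members were higher and 2 lower, and in the mesenchymal list 8 of 20 were higher and 7 lower, with medians of 0.58 and 0.62. Of all members 15.6% were higher and 16.4% lower, with a median of -0.09. Over the 18 mesenchymal members above 3 estimated reads in both libraries 8 were higher and 5 lower. CLDN1, a tight junction gene, was at 9.39 and 12.68, CDH3, the P-cadherin gene, at 10.62 and 13.53, and CDH2, the N-cadherin gene, at 11.87 and 13.60. SNAI1, a repressor of E-cadherin, was at 5.29 and 7.35. Differences in the mesenchymal list ran from -4.25 to 4.01. Its 7 lower members are not named in this paragraph, so CDH2 and SNAI1, both higher, do not stand for the list. The keratin genes KRT8 (15.01 and 13.46) and KRT19 (14.77 and 12.97) were lower and KRT7 (12.03 and 13.09) was higher.

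Of 31 nuclear receptor members 12 were higher and 2 lower. Of the 31 members 5 stood under 3.32 in EBC-1 and passed the floor only through EBC-CR3. Over the 27 above 3 estimated reads in both 8 were higher and 2 lower. Besides NR3C2, the higher genes included THRB, a thyroid hormone receptor gene, at 4.54 and 9.95. ESR1, the oestrogen receptor alpha gene, stood at 6.25 in EBC-CR3 and 7.52 in EBC-CR2 and at 0 in the other two libraries. PPARG, a regulator of lipid storage genes, was lower at 9.73 and 7.17. Of 12 mineralocorticoid and glucocorticoid targets 7 were higher and 1 lower, among them TSC22D3 (10.95 and 12.28), PER1 (8.67 and 10.52) and KLF9 (5.33 and 7.36). All 6 members of the neurotrophin list of 15 genes were higher, 4 of them under 3.32 in EBC-1, with NGFR, the low-affinity neurotrophin receptor gene, at 3.88 and 7.87. Of 7 HOXC members 0 were higher and 5 lower, with HOXC13 at 7.08 and 4.38. Of the 7 members 3 stood under 3.32 in EBC-CR3 and passed the floor only through EBC-1, so they had to stand below EBC-1. Over the 5 above 3 estimated reads in both 3 were lower.

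Across the 69 of 77 lists with at least 5 members, the median difference was at or above 1 in 10 lists, at or below -1 in 4 and between these in 55. At least 50% of the members were higher in 12 lists and lower in 6. Some genes are in more than 1 list, chemokines that are also inflammatory NF-kB targets among them, so these tallies are not independent.

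**Figure D4:**
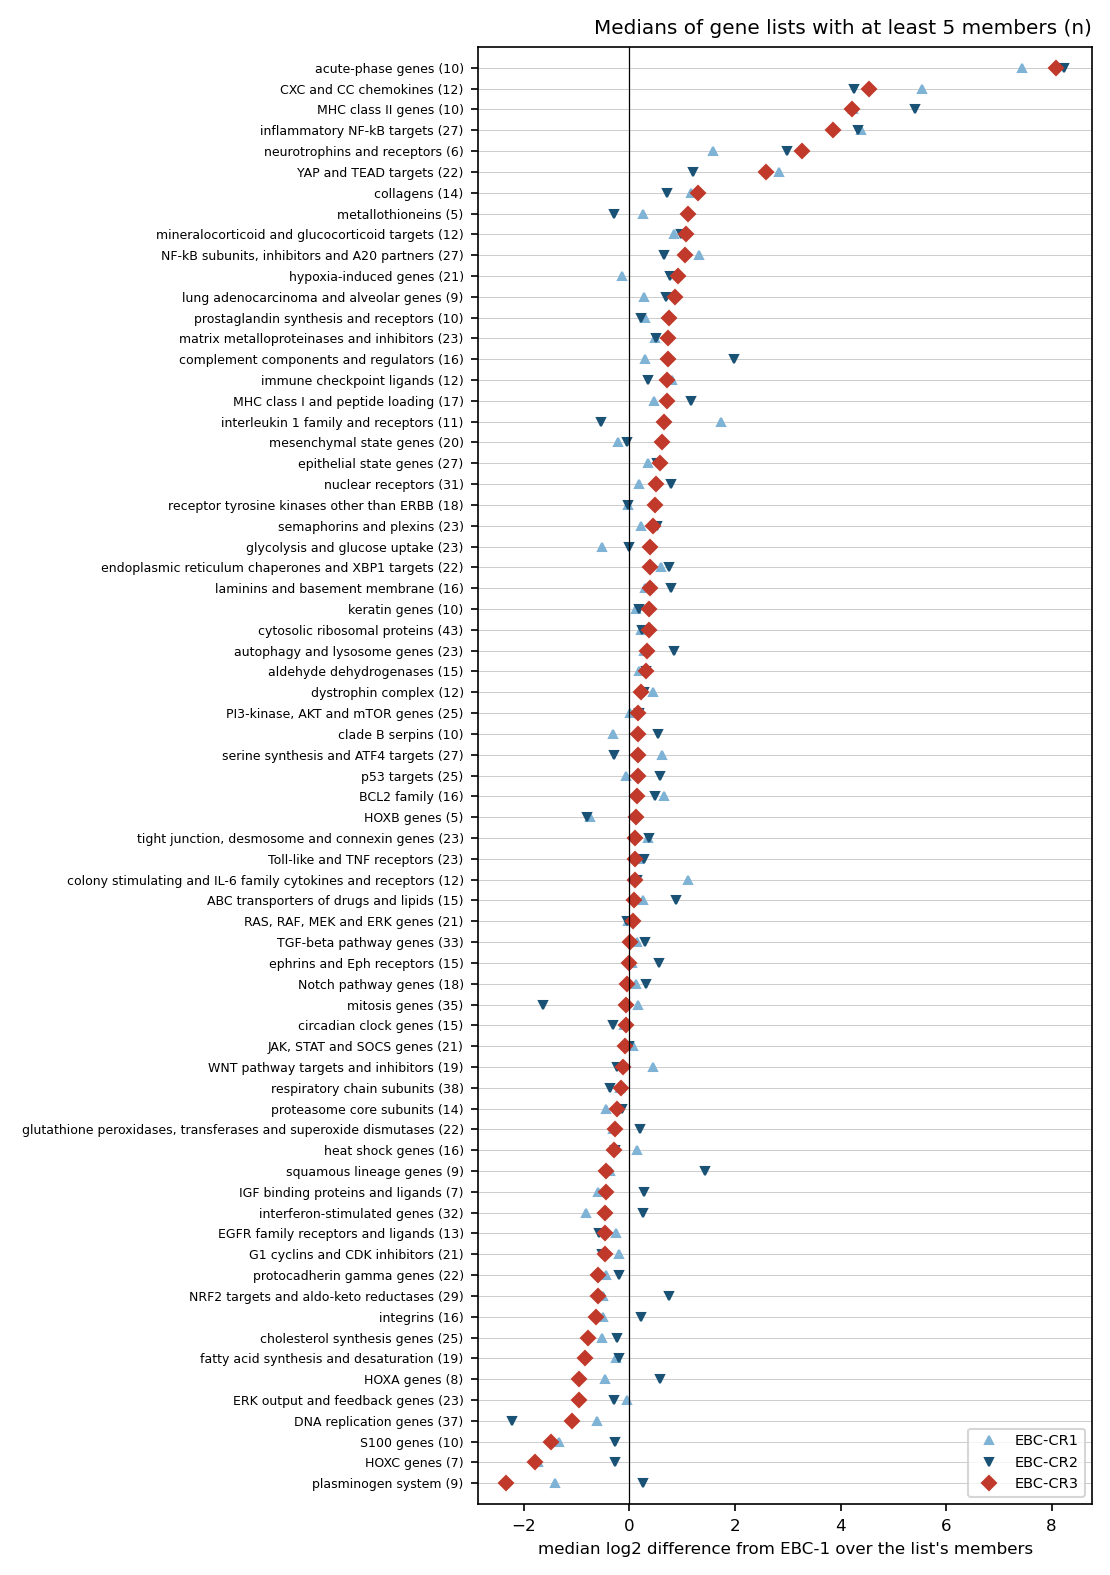
Median log2 difference from EBC-1 (x axis) over the members of the 69 lists with at least 5 members (y axis, n members), for EBC-CR3 and, beside it, EBC-CR1 and EBC-CR2, which share the parental library with it. The list medians of EBC-CR3 run from 8.08 for acute-phase genes to -2.34 for the plasminogen system.

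To name genes for which EBC-CR3 stood off from EBC-1 while both other lines stayed within 2-fold of it, 880 members that met this (6.16% of the 14287; 383 or 2.68% higher and 497 or 3.48% lower) were ranked. The extremes were low: DCX, a neuronal migration gene, PCSK2, a prohormone convertase gene, KCNMA1, a potassium channel gene, SOX11, EYA4, ALDH1A2, HRH4, OPALIN, ADCYAP1R1 and RHBG were listed at 0 in the other 3 libraries, with DCX at 4.73 and PCSK2 at 4.88 in EBC-CR3. The lowest included LIFR-AS1, DOK7, USF1, IRX4, PLA2G4F, LRRIQ3, SPEF1, SH3BGR and FAM81A, with USF1, an E-box-binding factor gene, at 2.09 in EBC-CR3, where the other libraries had 6.06 (EBC-1), 5.48 (EBC-CR1) and 5.58 (EBC-CR2). Genes at or above 3.32 in 1 library and listed at 0 in the other 3 numbered 38 for EBC-CR3, 28 for EBC-1, 31 for EBC-CR1 and 35 for EBC-CR2.

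Restricting the ranking to the 513 of them above 100 units in the mean of EBC-1 and EBC-CR3, a choice made after the values were seen, named better-counted genes. DDX60L, a helicase-like gene, stood at 9.24 in EBC-CR3, against 7.21 in the parental library, 7.98 in EBC-CR1 and 7.41 in EBC-CR2. PGM2L1, a glucose 1,6-bisphosphate synthase gene, was at 11.43, 9.49, 10.17 and 9.81 in that order, and QSOX1, a secreted sulfhydryl oxidase gene, at 12.75, 11.08, 12.03 and 11.32. GPR161 (1.85), FZD4, a WNT receptor gene (1.79), PPFIA4 (1.75), GSDMB (1.74), FBXL2 (1.67), DGKH (1.65) and ZNF555 (1.65) completed the 10 highest. Among the lower ones, TWF2, an actin-binding gene, was at 8.56, 10.66, 9.68 and 9.87, and ABCB8, a mitochondrial transporter gene, at 5.60, 7.99, 7.31 and 7.10. PAK6 (-2.02), TMEM216 (-2.01), EOGT (-1.90), BCDIN3D (-1.86), TRIM35 (-1.85), LRFN4 (-1.85), GPATCH3 (-1.78) and ZSCAN25 (-1.77) were the others. Some of these lay just inside the 2-fold limit in another line: in EBC-CR1 QSOX1 differed by 0.95 and TWF2 by -0.98, and GPR161 differed by 0.91 in EBC-CR1 and 0.97 in EBC-CR2.

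Neighbouring genes were compared to see whether differences ran along chromosomes. Gene order came from RefSeq (GRCh38.p14), in which 14021 of the 14287 members were placed, and 10086 of them were above 100 units in the mean of the 2 libraries. Medians of chromosomes, windows and stretches are given relative to the median of those genes, and values of single genes are plain differences. Chromosome 19 stood highest, with 74.0% of 635 genes above the median and a chromosome median of 0.49, against 0.42 in EBC-CR1 and 0.12 in EBC-CR2. Chromosome 9 followed with 0.30, against 0.29 in both other lines. Chromosome 20 stood lowest at -0.33, with 70.1% of 298 genes below the median, against -0.29 and 0.05 in EBC-CR1 and EBC-CR2. All 3 differences use the same parental library.

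In windows of 31 neighbouring genes, the 3 highest were from SEL1L3 to FRYL on chromosome 4 (median 1.02, 29 of 31 genes above the overall median), from JAK3 to MAU2 on chromosome 19 (1.01, 27 genes) and from SERPINI1 to SOX2 on chromosome 3 (0.96, 27 genes). The chromosome 4 window holds RBPJ, the Notch pathway DNA-binding factor gene (1.08), TLR6 (0.61) and RBM47 (0.95), and 15 of its genes were higher and 0 lower. The chromosome 19 window holds JUND (1.08), IFI30 (0.62) and GDF15 (3.79), with 12 higher and 0 lower. The chromosome 3 window holds MECOM (0.28), PRKCI (1.35), TNFSF10 (-1.68) and SOX2, with 13 higher and 2 lower, and its median was 0.63 in EBC-CR1 but -0.41 in EBC-CR2. The 3 lowest windows were from CDK6 to ATP5J2 on chromosome 7 (-1.15, 26 genes below), from RER1 to PER3 on chromosome 1 (-0.96, 29 genes) and from CEP41 to PARP12 on chromosome 7 (-0.96, 23 genes). In the first of these 19 genes were lower and only PEG10 was higher; CDK6, a G1 kinase gene, differed by -0.12, SAMD9 by -2.04 and ARPC1B, an actin nucleation gene, by -2.001. In the chromosome 1 window 16 genes were lower and 0 higher, with TP73, a p53 family gene, at 9.79 and 6.25 and ACOT7 at 10.52 and 8.83. In the window up to PARP12 16 genes were lower and 3 higher, with CALD1, the caldesmon gene, at 12.05 and 13.20, PODXL at 6.85 and 6.48 and HIPK2 at 11.78 and 10.37.

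The running median stayed on 1 side over long stretches, which were delimited after the values were seen. On chromosome 1 it stayed below the overall median for 332 genes in a row, from CPTP to RNF220, in which 105 genes were lower and 9 higher; the median was -0.61 in EBC-CR3, -0.61 in EBC-CR1 and -0.53 in EBC-CR2. On chromosome 19 it stayed above for 432 genes, from TMEM259 to ZNF226, with a median of 0.57 and 102 higher and 16 lower genes, against 0.48 in EBC-CR1 and 0.08 in EBC-CR2. On chromosome 11 a stretch of 131 genes from PHRF1 to APIP was below in EBC-CR3 (-0.38) and EBC-CR1 (-0.40) and above in EBC-CR2 (0.32). DNA copy number was not analysed here. The longest unbroken run of lower members was on chromosome 7, 11 genes from KPNA7 to ZNF789, among them the actin nucleation genes ARPC1A (-1.91) and ARPC1B. On chromosome 12 a run of 8 lower members ran from TRHDE to PHLDA1. A run of 8 higher members from CLEC2B to KLRC1 on that chromosome holds the killer cell lectin genes KLRC1, KLRC2 and KLRC3, which resemble one another and may share reads.

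**Figure D5:**
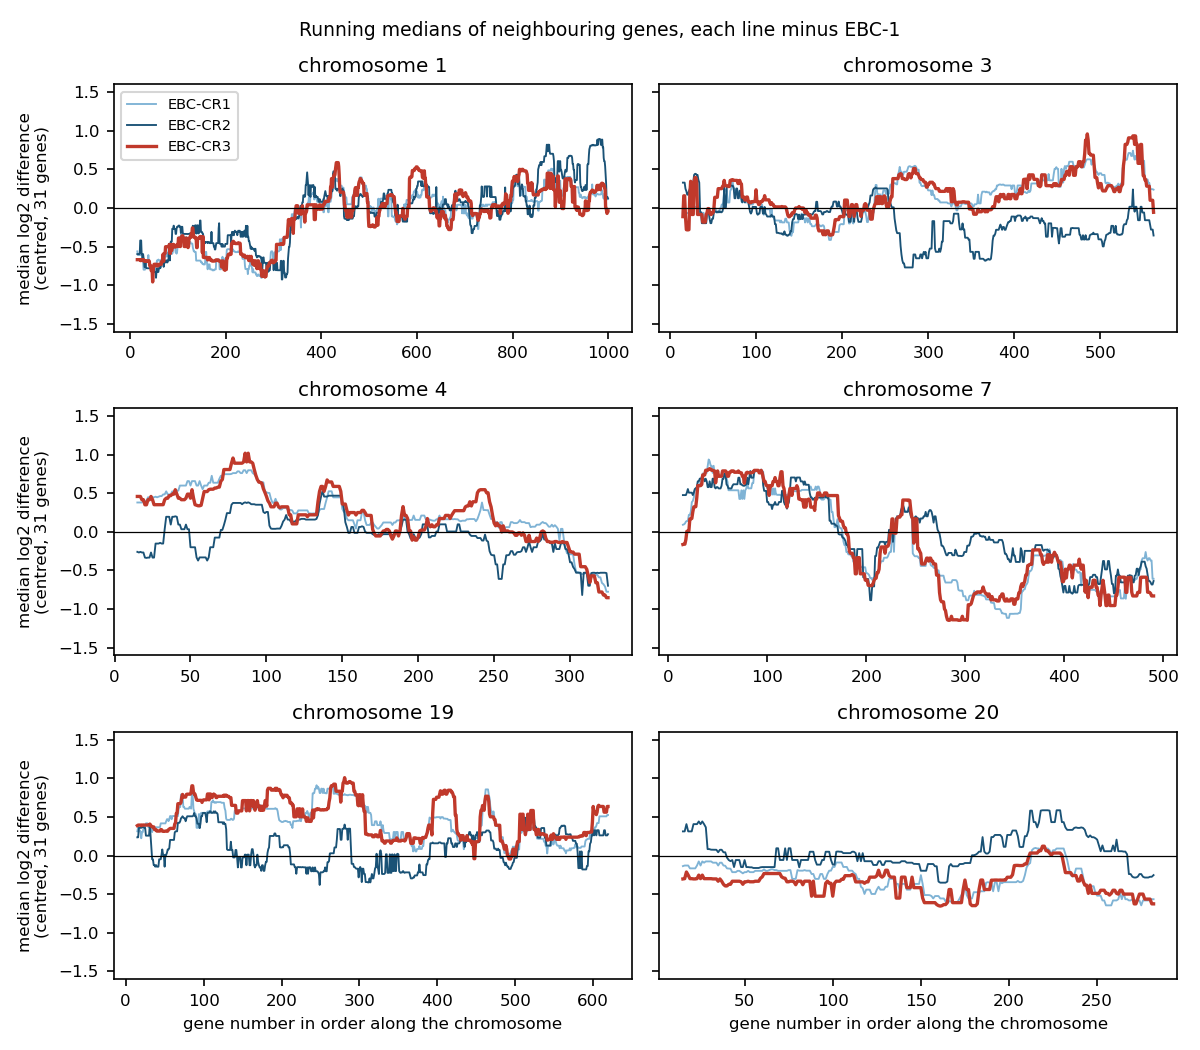
Running median over 31 neighbouring genes of the log2 difference from EBC-1 (y axis), in gene order along 6 chromosomes (x axis, gene number), for EBC-CR3 (thick line), EBC-CR1 and EBC-CR2. Only the 10086 placed genes above 100 units in the mean of EBC-1 and EBC-CR3 were used, and values are relative to their median. The early part of chromosome 1 lies below 0 in all 3 lines, while chromosome 19 lies mostly above 0 in EBC-CR3 and EBC-CR1, with medians of 0.49 and 0.42 over the chromosome.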

How the data were processed

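Total RNA was extracted with Trizol and turned into libraries with a Lexogen Quant-Seq kit, per the labels' protocols, 1 library per cell line; whether it reads only transcript ends was not settled here, and levels were not corrected for gene length. The deposited values are log2 levels per gene symbol; the submitters' processing notes name Bowtie2, edgeR and hg19, with no versions or roles. The sorted values of the libraries differ by at most 0.81, and 100% of values under 500 units are multiples of 0.25 units, so a normalization to a common distribution is inferred, which forces equal totals and can hide a shift of all genes. The spacing of the lowest values gave 0.839 to 1.16 units per read and 21.5 to 29.8 M estimated reads per library. Differences were subtracted as deposited (log2 of units plus 1), which understates changes of low genes. With 1 library a side no test was run. Intervals are exact binomial 95% intervals of estimated reads and cover counting error only.

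Named genes were the 15 highest and 15 lowest differences above 3 estimated reads in both libraries; the 12 highest levels among genes listed at 0 in either library; the 12 largest gains and losses of units; the largest members and regulators of each list; the 10 highest and 10 lowest differences among genes within 2-fold in both other lines; and genes of the windows; some of these are not reported here. The members and 77 gene lists were chosen with earlier results of these data known. Python 3.11.15, pandas 2.3.3, numpy 2.4.6, scipy 1.17.1 and matplotlib 3.10.9 were used, and the calculations were tested on simulated data. Alternatives were the pseudocount, the floor, centring, estimated reads scaled to equal totals, the fold, the interval, the window, and the library taken by header.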

Additional observations from a re-analysis of the deposited data

Results flagged for a closer look

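Some results went one way in EBC-CR3 and the other way in another resistant line, measured against the same parental library with 1 library a line, and the difference between lines was not tested. Against EBC-CR2, the median over 29 NRF2 targets and aldo-keto reductases was -0.60 in EBC-CR3 and 0.76 in EBC-CR2. Over 11 interleukin 1 family genes and receptors the medians were 0.66 and -0.54, and over 8 HOXA genes -0.96 and 0.58. Of the 8 HOXA members 3 stood under 3.32 in EBC-CR3 and passed the floor only through EBC-1. These 3 had to stand below EBC-1 in EBC-CR3, while EBC-CR2 took no part in the floor. Summed over the 11 HOXA genes listed, the level was 917 units in EBC-1 and 1546 in EBC-CR3. Of single genes, SERPINF2 differed by -5.25 in EBC-CR3 and 2.04 in EBC-CR2, PIK3R3 by -2.49 and 1.01, ITGB4 by -1.87 and 1.12, and TNFSF10, a death receptor ligand gene, by -1.68 and 1.93. SNAI1 differed by 2.06 and -1.34, EPGN by 3.02 and -2.86 and ERBB4 by 3.34 and -1.91, though EPGN and ERBB4 were listed at 0 in EBC-CR2. EPGN (2.86) and ERBB4 (1.91) also stood under 3.32 in EBC-1 and passed the floor only through EBC-CR3. Both therefore had to stand above EBC-1 in EBC-CR3. Against EBC-CR1, CSF2 differed by -2.53 in EBC-CR3 and 3.34 in EBC-CR1, the pair of libraries whose column headers are crossed.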

How the results depend on the processing

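The counts of 2229 higher and 2350 lower genes stayed within 1.5 times with a pseudocount of 5, no floor, a floor of 50 units, centring on the median and the library taken by its column header. At 4-fold they were 946 and 711. With estimated reads scaled to equal totals the lower count was 1365, and with the counting interval wholly past 2-fold it was 1386. Of the calls 48.7% were higher, and 54.3% after centring. If the column header is followed in place of the label, 8 of the genes named had the other sign: CSF2 3.34, EGLN3 -0.35, EOGT 0.25, EREG 0.073, ID1 0.074, IRX4 0.90, PPFIA4 -0.55 and SOCS1 0.19. This comes from taking another library. Another 230 named genes moved beyond their counting interval under it. Of 154 counts of higher or lower genes in the lists, 54 moved over 1.5 times with the library taken by header, 30 with a floor of 50 units, 25 with only genes above 3 estimated reads in both and 6 with a pseudocount of 5, under which 57 named genes moved beyond their interval. With windows of 61 genes the share in the window from SEL1L3 to FRYL moved beyond its interval, and those in 5 other windows did not. The shares of promoters with a motif moved beyond their interval at 4-fold in 6 of 10 cases. Low genes are limited by depth, since 3 reads were 2.52 units in EBC-1 and 2.70 in EBC-CR3. No paired analysis was possible because each line has 1 library.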

Other observations

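Several further gene groups, counted by the same 2-fold rule, are given as values. Over all members 15.6% were higher and 16.4% lower. Of 22 endoplasmic reticulum chaperone and XBP1 target members 6 were higher and 0 lower, with HSPA5, the main chaperone gene, at 14.19 in EBC-1 and 15.79 in EBC-CR3 and CALR, the calreticulin gene, at 13.62 and 14.69. Of 33 TGF-beta pathway members 11 were higher and 5 lower; the receptor genes TGFBR1 and TGFBR2 were at 7.52 and 8.85 and at 9.67 and 11.92, TGFBR3 was listed at 0 in EBC-1 and stood at 7.14, and the BMP target ID1 was at 13.53 and 12.26. Of 23 matrix metalloproteinase and inhibitor members 10 were higher and 4 lower, with MMP9 at 5.55 and 7.85, ADAM19 at 9.74 and 5.51 and TIMP3 at 5.66 and 1.46. Of the 23 members 4 stood under 3.32 in EBC-1 and passed the floor only through EBC-CR3, and 1 stood under it in EBC-CR3.

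Among 21 JAK, STAT and SOCS genes 5 were higher and 5 lower, with a median of -0.09. Over all members the median was -0.09 too, with 15.6% higher and 16.4% lower. The kinase genes JAK1 (8.53 and 10.30) and JAK3 (5.46 and 8.17) and STAT3 (11.89 and 13.001) were higher, and the inhibitor genes SOCS1 (6.32 and 5.29), SOCS2 (8.63 and 7.42) and SOCS3 (8.57 and 7.19) were lower. Of 10 prostaglandin members 5 were higher and 2 lower: PTGS2, the inducible cyclooxygenase gene, was at 2.09 and 5.95, and HPGD, which breaks prostaglandins down, stood at 5.41 in the parental library and at 0 in EBC-CR3. Of the 10 members 4 stood under 3.32 in EBC-1 and passed the floor only through EBC-CR3, and 1 stood under it in EBC-CR3. Of 12 checkpoint ligand members 4 were higher and 1 lower, with CD47, a signal against phagocytosis, at 11.22 and 12.78 and PVR at 12.92 and 14.48. EBC-CR3 listed ABCG2, a drug efflux pump gene, at 0, against a parental 5.09. Lists of basic cell functions were mostly within 2-fold, with 1 of 43 ribosomal protein genes higher and 0 lower, 0 of 38 respiratory chain genes higher and 3 lower, and 1 of 14 proteasome core genes lower.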
